A study of Gallus gallus with 60 samples.

Results

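The 11 treated chicken (Gallus gallus) utricle libraries of 48, 54, 60, 66 and 72 h, out of 60 RNA-seq libraries in the series, form a run of 6 h steps at the densest sampling of the study. They were taken by their time and treatment labels alone, with 2 samples each at 48, 54, 60 and 66 h and 3 at 72 h. Treated utricles were dissected, kept for 24 h with streptomycin, an antibiotic of the aminoglycoside class and toxic to hair cells, and left to recover before total RNA of the whole organ was taken. The 11 control samples of the same times serve as the background of the window. The labels used here give no strain, age or number of animals per sample, and leave the zero point of the hours undefined. P-values therefore measure the spread between these samples, which may in part be technical.

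The utricle is a balance organ of the inner ear whose sensory epithelium is made of hair cells and supporting cells, above a bed of stroma with vessels, nerve fibres and pigment cells. In birds, lost hair cells are replaced by supporting cells, which either divide first or convert directly. ATOH1 is the transcription factor that starts the hair cell programme, and Notch signalling between neighbouring cells holds it back in supporting cells. The question here was which genes moved, and in which direction, as recovery went on over these hours.

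Depth lay between 9553921 and 34904699 alignments in the treated libraries (median 22110953) and between 10712451 and 38699827 in the controls. For each library, the median correlation of its log2 values with the other libraries of its arm was computed. Treated replicate 1 of 48 h (0.962), replicate 2 of 60 h (0.951) and replicates 1 and 2 of 72 h (0.963 and 0.949) stood below the other 7 treated libraries, which reached 0.975 to 0.982. In the controls, replicate 1 of 48 h (0.957) and replicate 2 of 72 h (0.941) stood below the rest (0.970 to 0.982). Because these 4 treated libraries include 1 of 2 samples at the start of the window and 2 of 3 at its end, trends are also given without them, a choice made after seeing the data. Without them 48, 60 and 72 h keep 1 treated sample each, so the spread at these times is not measured. Samples of the same time were hardly more alike than samples of different times, with a median r of 0.967 over 7 same-time pairs and 0.963 over 48 other pairs.

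**Figure D1:**
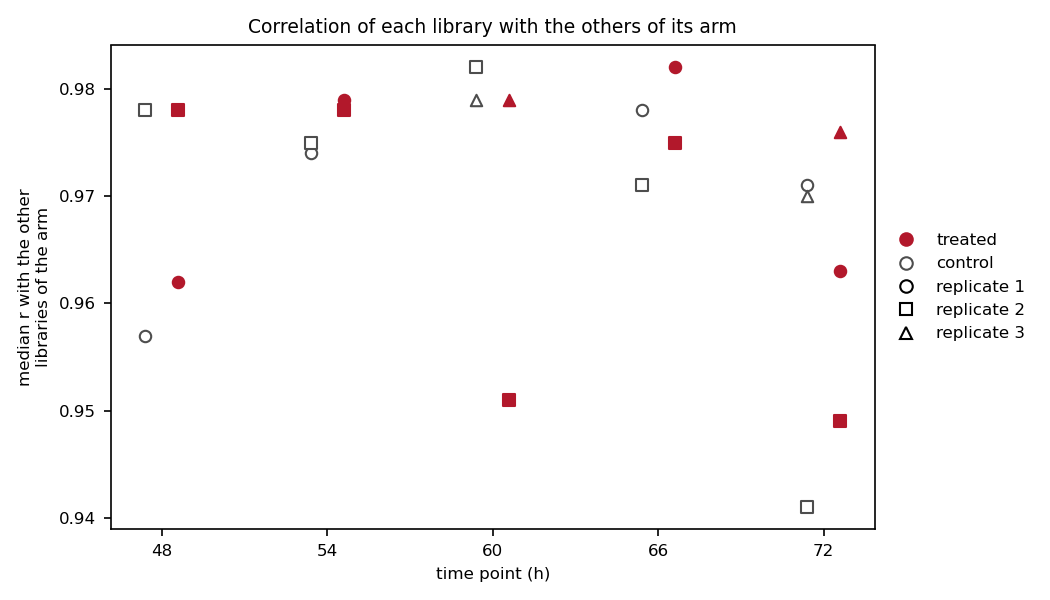
Median correlation (y axis, Pearson's r of log2(RPKM + 0.5) over all genes tested) of each library with the other libraries of its arm, by time point in hours (x axis), for treated and control. Treated 48 h replicate 1, 60 h replicate 2 and 72 h replicates 1 and 2 lie between 0.949 and 0.963, below the other treated libraries at 0.975 to 0.982.

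Values are RPKM, read numbers divided by transcript length and by the aligned reads of the library, and tests used log2(RPKM + 0.5) of 13862 genes. A curve with a linear and a quadratic term was fitted in limma over the 11 treated samples. The linear term is given as the fitted change from 48 to 72 h. The quadratic term is given as the bend: the fitted value at 60 h minus the mean fitted value at 48 and 72 h. A negative bend, called downward here, can come from a dip in the middle or from a rise at the end alone. No gene passed a Benjamini-Hochberg adjusted p under 0.05 in either direction for the linear term (0%, smallest adjusted p 0.31) or the bend (0%, 0.581) with limma. The same was true of the F test over the 5 times (0%, smallest adjusted p 0.641, with 1030 genes or 7.43% at an unadjusted p under 0.05) and of each step (0%): the smallest adjusted p was 0.959 from 48 to 54 h, 0.266 from 54 to 60 h, 0.776 from 60 to 66 h and 0.312 from 66 to 72 h. The standard error of the linear change had a median of 0.24 over genes, the absolute change a median of 0.22, and 281 genes had a fitted change of 1 or more in either direction.

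At an unadjusted p under 0.05, limma gave 323 bends upward (2.33%) against 847 downward (6.11%). The median bend over all genes was -0.10, and -0.02 without the 4 libraries that stood apart. For the linear term limma gave 947 genes higher (6.83%) and 496 lower (3.58%) at the same level. The split between higher and lower depends on scaling: it was 786 against 879 after trimmed-mean scaling and 804 against 943 after quantile normalization. It also rests on single libraries, since leaving out 48 h replicate 2 reversed it, to 627 against 725. Leaving out 48 h replicate 1 gave 689 against 131, and leaving out 72 h replicate 2 gave 582 against 229. Leaving out all 4 libraries that stood apart gave 642 against 289. Among the steps, 66 to 72 h held the most genes at that level, 1598 higher (11.5%) and 408 lower (2.94%), with 512 genes differing by 1 or more. The earlier steps held 143 higher (1.03%) and 359 lower (2.59%) from 48 to 54 h, 282 (2.03%) and 134 (0.967%) from 54 to 60 h, and 189 (1.36%) and 241 (1.74%) from 60 to 66 h. In the controls the linear term gave 304 higher (2.19%) and 448 lower (3.23%), with no gene past the adjusted threshold (0%, smallest adjusted p 0.708). The difference in linear change between treated and control passed for no gene either (0%, adjusted p 1), with 172 higher in treated (1.24%) and 81 lower (0.584%) at an unadjusted p under 0.05. For the bend the smallest adjusted p of that difference was 0.936 (0%), with 275 genes higher (1.98%) and 358 lower (2.58%) at an unadjusted p under 0.05. With treated and control samples of the same number fitted as pairs, no gene passed for either difference. At an unadjusted p under 0.05, that fit gave 589 genes higher and 179 lower for the linear term.

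The count of 0 for single steps depended on which libraries carried the comparison. Without replicate 3 of 60 h, the 60 h mean is replicate 2 alone, a library that stood apart and is then assumed to vary like the other times, and limma called 578 genes from 54 to 60 h and 873 from 60 to 66 h. Limma's weights for library quality ranged from 0.365 to 1.93 in the other 10 treated samples and reached 8.04 for replicate 3 of 72 h. At 48, 54, 60 and 66 h both samples of a time deviate equally from their mean and got the same weight. These weights, of the fit with time as a factor, thus separate samples of a time at 72 h only. With them 1805 genes were called from 66 to 72 h, 1428 higher and 377 lower. The fitted curve had its own weights, with 0.37 and 1.07 at 48 h, 0.175 and 2.02 at 60 h, and 6.63 for replicate 3 of 72 h. Without the 4 libraries that stood apart, the 72 h mean is replicate 3 alone. The step from 66 to 72 h then had a median of 0.03 over all genes, and its spread at 72 h was not measured. The step counts below are therefore given as descriptions of these samples.

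**Figure D2:**
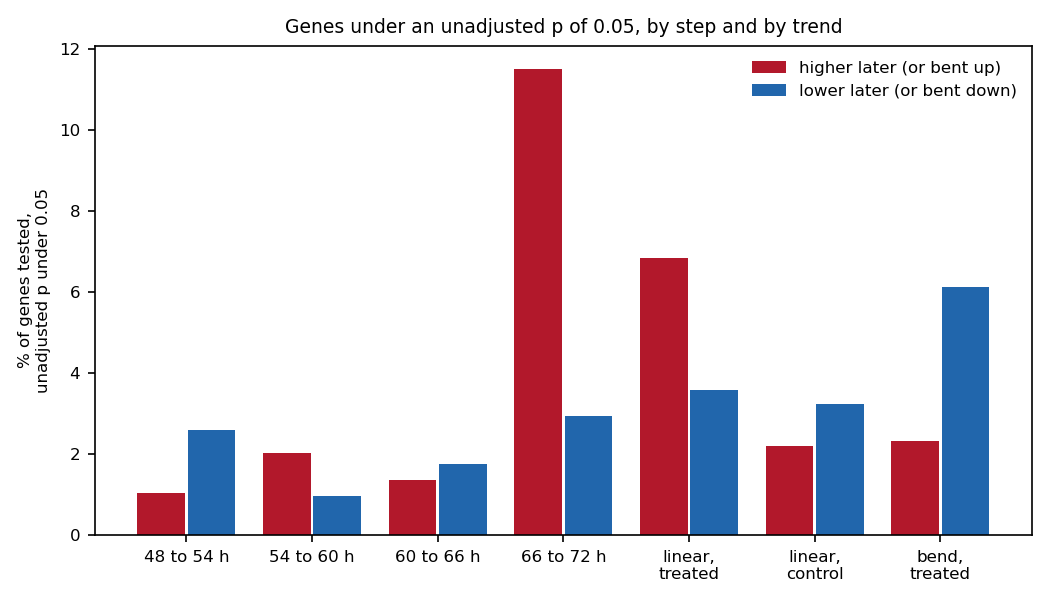
Share of the 13862 genes with an unadjusted p under 0.05 (y axis, percent), higher and lower separately, for each 6 h step in treated and for the linear and bend terms. The step from 66 to 72 h has the tallest bar, 11.5% higher.

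Since no gene passed, the lists below are described by how many members stood higher or lower at an unadjusted p under 0.05, to be read against the shares of all genes just given, and by their median fitted change, which was 0.02 over all genes tested. Treated libraries whose omission moved such a count or median by over 1.5 times are named beside it for most lists. DNA replication and mitosis genes stood higher at 48 h than later. Of 40 replication genes, 18 were lower along the window and none higher, with a median of -0.50 on the log2 scale. Of 59 mitosis genes, 24 were lower and none higher, with a median of -0.52. The mean level of the mitosis list, in log2(RPKM + 0.5), was 4.15 and 3.62 at 48 h, 3.21 and 3.30 at 54 h, 3.52 and 3.48 at 60 h, 3.10 and 3.11 at 66 h, and 3.68, 3.23 and 3.16 at 72 h. Its higher 48 h sample is replicate 1, and its lower one lay below replicate 1 of 72 h. The replication list read 4.22 and 3.67 at 48 h, 3.21 and 3.47 at 54 h, 3.67 and 3.50 at 60 h, 3.25 and 3.14 at 66 h, and 3.55, 3.31 and 3.31 at 72 h. The course was thus uneven, with a lower level at 54 h, a higher one at 60 h and a lower one again at 66 h.

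Of the 4 steps, the earliest held the most members counted as lower. It starts from 48 h, where replicate 1 was the highest treated sample of both lists. From 48 to 54 h, 36 of the 59 mitosis genes and 22 of the 40 replication genes were lower at an unadjusted p under 0.05, against 2.59% of all genes, and none was higher. From 60 to 66 h, 11 mitosis and 5 replication genes were lower, against 1.74% of all genes. From 66 to 72 h, 7 and 8 of them were higher, against 11.5% of all genes. The median step was -0.65, 0.26, -0.40 and 0.24 for mitosis and -0.60, 0.24, -0.38 and 0.19 for replication, in time order.

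Replicate 1 of 48 h carried much of these counts. Without it the linear change had a median of -0.26 for mitosis, with 2 genes lower, and -0.24 for replication, with 1 gene lower. The mitosis count was also 40 without replicate 1 of 72 h, 11 without replicate 2 and 10 without replicate 3. Without all 4 libraries that stood apart, the medians were -0.45 and -0.33 with 21 and 6 genes lower. The 48 h mean is then replicate 2 alone, and the median step from 48 to 54 h was -0.40 for mitosis and -0.33 for replication. The control window had the same direction, with a median of -0.71 and 43 mitosis genes lower, and a median of -0.31 and 11 replication genes lower, against 3.23% of all genes. Without the 2 control libraries that stood apart, 18 mitosis and 3 replication genes were lower in control. The difference between the arms had a median of 0.20 for mitosis, with 0 of 59 genes at an unadjusted p under 0.05 in either direction, and of -0.18 for replication, with 1 gene lower. With treated and control samples of the same number as pairs, 3 mitosis genes were higher. Of the replication genes, 1 was higher and 2 were lower in that fit. Over all 13862 genes it gave 589 higher and 179 lower.

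RRM2, a subunit of the enzyme that makes deoxyribonucleotides, stood at 200.4 and 122 RPKM at 48 h, 70.7 and 90.6 at 54 h, 133 and 93.4 at 60 h, 55.2 and 54.8 at 66 h, and 84.2, 67.4 and 64.0 at 72 h. Its 72 h samples all lay below both 48 h samples. The fitted change was -1.09 ± 0.32 (SE) in treated and -1.58 ± 0.28 in control, and the difference of 0.49 ± 0.44 did not pass (unadjusted p 0.286, limma). With samples of the same number as pairs it was 0.49 ± 0.31 (unadjusted p 0.148, limma). TRIP13, which remodels checkpoint and meiotic proteins, read 5.49 and 3.91 RPKM at 48 h, 3.27 and 3.19 at 54 h, 3.54 and 2.69 at 60 h, 2.08 and 2.16 at 66 h, and 2.56, 2.34 and 2.13 at 72 h. Both 48 h values exceeded all later ones. Its change was -0.88 ± 0.19 (unadjusted p 0.000742, adjusted p 0.343 with limma), against -0.22 ± 0.22 in control, where levels were 0.705 to 1.62 RPKM.

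HAUS6, part of the augmin complex that branches spindle microtubules, had a change of -0.71 ± 0.15 and stood at 13.3 and 11.4 RPKM at 48 h against 6.58 to 9.02 in all later samples. EXO1, a DNA exonuclease of mismatch repair and end resection, had -0.99 ± 0.22, from 3.46 and 2.33 RPKM at 48 h to between 0.789 and 1.56 later. APITD1, a centromere protein, had -0.95 ± 0.22, with 16.3 and 10.7 RPKM at 48 h and 7.38, 5.20 and 6.45 at 72 h. In HAUS6 and EXO1 the 48 h samples did not overlap with later ones, whereas the lower 48 h value of APITD1 lay below 11.4 RPKM at 60 h.

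SMC2, a core subunit of condensin, had a change of -1.01 ± 0.28 in treated and -1.41 ± 0.25 in control. ANLN, the cytokinesis scaffold anillin, had -0.77 ± 0.21 and -1.08 ± 0.22. CDC45, part of the replicative helicase, had -0.72 ± 0.21 and -0.62 ± 0.17, and BRCA1, which acts in homologous recombination, had -0.88 ± 0.25 and -0.71 ± 0.22. TOP2A, the topoisomerase of chromosome segregation, had -0.44 ± 0.19 in treated and -0.83 ± 0.23 in control. MCM6, a helicase subunit, and CDC20, an activator of the anaphase-promoting complex, had intervals on both sides of 0: -0.21 (95% interval -0.61 to 0.20) and -0.02 (-0.60 to 0.57). The changes of these genes were not tested against each other, and none of them passed the adjusted threshold in treated.

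Histone and chromatin assembly genes followed the same direction, with 8 of 25 lower, none higher and a median of -0.39. Without 48 h replicate 1 the median was -0.13 with 1 gene lower, and the count was 14 without 48 h replicate 2 and 5 without 72 h replicate 2. The control window had the same direction, with a median of -0.38 and 8 of 25 lower, against 3.23% of all genes. The difference between the arms had a median of -0.09 for this list, with 0 genes at an unadjusted p under 0.05. SLBP, which binds the stem-loop of histone mRNAs, read 7.81 and 5.12 RPKM at 48 h and 2.98, 2.87 and 2.63 at 72 h, a change of -0.97 ± 0.27. Of the 24 G1 to S regulators, 2 were higher and 2 lower, with a median of -0.06. Of 37 p53 target and DNA damage genes, 1 was higher and 5 lower, with a median of -0.19. Without 48 h replicate 1 that median was -0.01, with 2 higher and 2 lower. The p53-induced cell cycle inhibitor CDKN1A read 4.25 and 3.57 RPKM at 48 h, 2.29 and 2.54 at 54 h, and 5.89 and 3.67 at 60 h. It then read 5.83 and 4.46 at 66 h, and 6.67, 7.93 and 5.24 at 72 h. Its 72 h samples lay above both 48 h samples, and the fitted change was 0.90 ± 0.28, against -0.23 ± 0.44 in control. CDKN1B, an inhibitor tied to cell cycle exit in the inner ear, had 0.19 (95% interval -0.30 to 0.69), and the cyclin gene CCND1 had -0.06 (-0.55 to 0.43). MYCL1, a member of the MYC family, stood at 10.1 and 10.2 RPKM at 48 h, 7.13 and 7.25 at 54 h, 9.45 and 8.72 at 60 h, 8.12 and 8.43 at 66 h, and 17.7, 19.9 and 14.5 at 72 h. All 72 h samples lay above all earlier ones, and the step from 66 to 72 h was 1.02 ± 0.17 (unadjusted p 0.000183, limma).

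**Figure D3:**
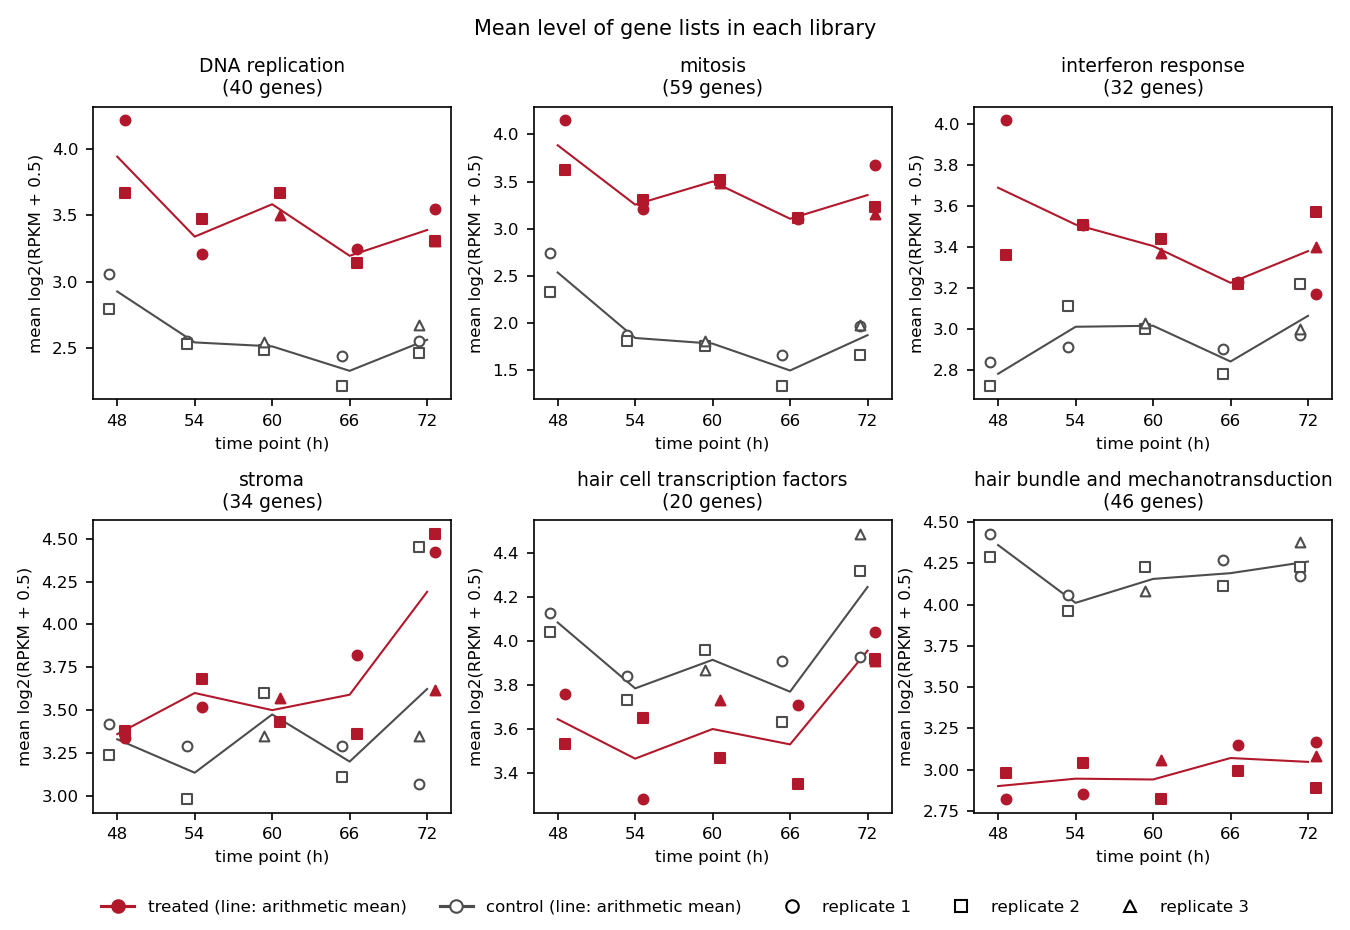
Mean level of 6 gene lists in each library (y axis, mean log2(RPKM + 0.5)) by time point in hours, treated in filled red and control in open grey, with the marker giving the replicate number and the line joining the means. Treated 48 h replicate 1 is the highest point for DNA replication (4.22), mitosis (4.15) and interferon response (4.02), and treated 72 h replicates 1 and 2 are the highest treated points for stroma (4.42 and 4.53).

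Interferon response genes, which cells use against viruses and which also respond to nucleic acids released by dying cells, had their highest mean level in 48 h replicate 1. Of 32 such genes, 11 were lower along the window and none higher, with a median of -0.37. The mean level was 4.02 and 3.36 at 48 h, 3.51 and 3.51 at 54 h, 3.44 and 3.37 at 60 h, 3.23 and 3.22 at 66 h, and 3.17, 3.57 and 3.40 at 72 h. The samples of 54, 60 and 66 h did not overlap and fell in time order. The 72 h samples spread over the range of these times. The other 48 h sample, replicate 2, lay below both samples of 54 h, both of 60 h and replicates 2 and 3 of 72 h. In control the levels were 2.72 to 3.22 and the median change was 0.18, with 1 gene higher and none lower. The difference between the arms had a median of -0.47, and 7 of the 32 genes were lower in treated at an unadjusted p under 0.05, against 0.584% of all genes, though none after adjustment. Without 48 h replicate 1 the treated median was -0.20, with 4 genes lower and 1 higher, and without all 4 libraries that stood apart it was -0.21, with 7 lower and 3 higher. The median was also -0.20 without 72 h replicate 1 and -0.58 without 48 h replicate 2. Without the libraries of both arms that stood apart, the median difference was -0.22 and 0 of the 32 genes were lower or higher at that level.

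RSAD2, the antiviral enzyme viperin, read 52.3 and 15.3 RPKM at 48 h, 19.4 and 16.0 at 54 h, 15.1 and 20.3 at 60 h, 15.9 and 13.7 at 66 h, and 6.71, 8.66 and 9.67 at 72 h. All 3 samples of 72 h lay below all earlier ones, and the controls ranged from 2.44 to 12.3. The change was -1.51 ± 0.37 in treated and 0.86 ± 0.42 in control, and the difference of -2.37 ± 0.59 had an unadjusted p of 0.000632 and did not pass after adjustment with limma. Leaving out 1 treated library at a time gave -2.05 to -0.77, and leaving out the 4 that stood apart gave -0.59. MX1, a dynamin-like antiviral GTPase, stood at 12.5 and 5.59 RPKM at 48 h, 7.08 and 6.603 at 54 h, 3.04 and 5.01 at 60 h, 4.72 and 3.84 at 66 h, and 3.70, 2.93 and 3.67 at 72 h. Every sample from 60 h on lay below every sample of 48 and 54 h. Its change was -1.20 ± 0.29, against -0.03 ± 0.22 in control, and it was -0.78 without the 4 libraries. ISG12-2, an interferon-stimulated gene, had -1.31 ± 0.32, from 72.3 and 26.1 RPKM at 48 h to 17.4, 22.4 and 16.6 at 72 h, and -1.06 without the 4 libraries. MB21D1, which encodes cGAS, the sensor of cytosolic DNA, read 8.11 and 4.98 RPKM at 48 h and 3.02, 2.97 and 3.11 at 72 h, a change of -1.03 ± 0.25 against -0.14 ± 0.19 in control.

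Hair cell transcription factors stood highest at 72 h. Of 20 genes, 4 were higher along the window, ATOH1, POU4F3, LHX3 and NHLH1 (the last named after its values were seen), and none was lower. The list's median change was 0.37 and its median bend -0.35, beside -0.10 over all genes. Without the 4 libraries that stood apart the median bend was -0.13, beside -0.02 over all genes. The mean level read 3.76 and 3.53 at 48 h, 3.28 and 3.65 at 54 h, 3.47 and 3.73 at 60 h, 3.71 and 3.35 at 66 h, and 4.04, 3.92 and 3.91 at 72 h. The 72 h samples lay above all earlier treated samples. From 66 to 72 h, 6 of the 20 were higher, against 11.5% of all genes. In control the mean level was 3.63 to 4.49 and the median change 0.23, with 0 of 20 genes at an unadjusted p under 0.05, and the difference between the arms had a median of 0.06. Without the 4 libraries that stood apart the treated median was 0.29, with 1 gene higher and 1 lower. Without 48 h replicate 2 alone it was 0.18, with 0 of the 20 genes higher and 1 lower. Without 54 h replicate 1 or 72 h replicate 1, 2 genes were higher, with medians of 0.25 and 0.24, and 2 were higher without 72 h replicate 3. In RNA of a whole organ, more cells of a type and more RNA per cell cannot be told apart.

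ATOH1 stood at 60.6 and 29.6 RPKM at 48 h, 27.2 and 38.1 at 54 h, 57.0 and 44.0 at 60 h, 41.8 and 29.8 at 66 h, and 83.3, 108 and 72.2 at 72 h. All 72 h samples lay above all earlier ones, while the earlier times overlapped. The fitted change was 0.91 ± 0.35 (95% interval 0.15 to 1.67, unadjusted p 0.0232, adjusted p 0.43 with limma) and the step from 66 to 72 h was 1.28 ± 0.32. The controls lay between 15.0 and 51.5 RPKM with a change of 0.26 ± 0.30, so the difference of 0.65 ± 0.48 did not pass. With samples of the same number as pairs it was 0.65 ± 0.29 (unadjusted p 0.0429, limma), which did not pass after adjustment either. POU4F3, which hair cells need to survive, read 13.3 and 9.23 RPKM at 48 h, 8.26 and 15.5 at 54 h, 13.7 and 12.9 at 60 h, 14.9 and 10.7 at 66 h, and 20.6, 25.0 and 19.3 at 72 h. Again 72 h lay above all earlier samples, and 2 of its 3 samples lay below every control, at 21.1 to 44.0. Its change was 0.82 ± 0.25 in treated and 0.09 ± 0.23 in control. LHX3, a LIM homeodomain factor of hair cells, had 0.58 ± 0.23, and GFI1, which acts after POU4F3, had 0.41 (95% interval -0.01 to 0.82) with 5.11 to 8.37 RPKM in treated against 26.7 to 52.6 in control.

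**Figure D4:**
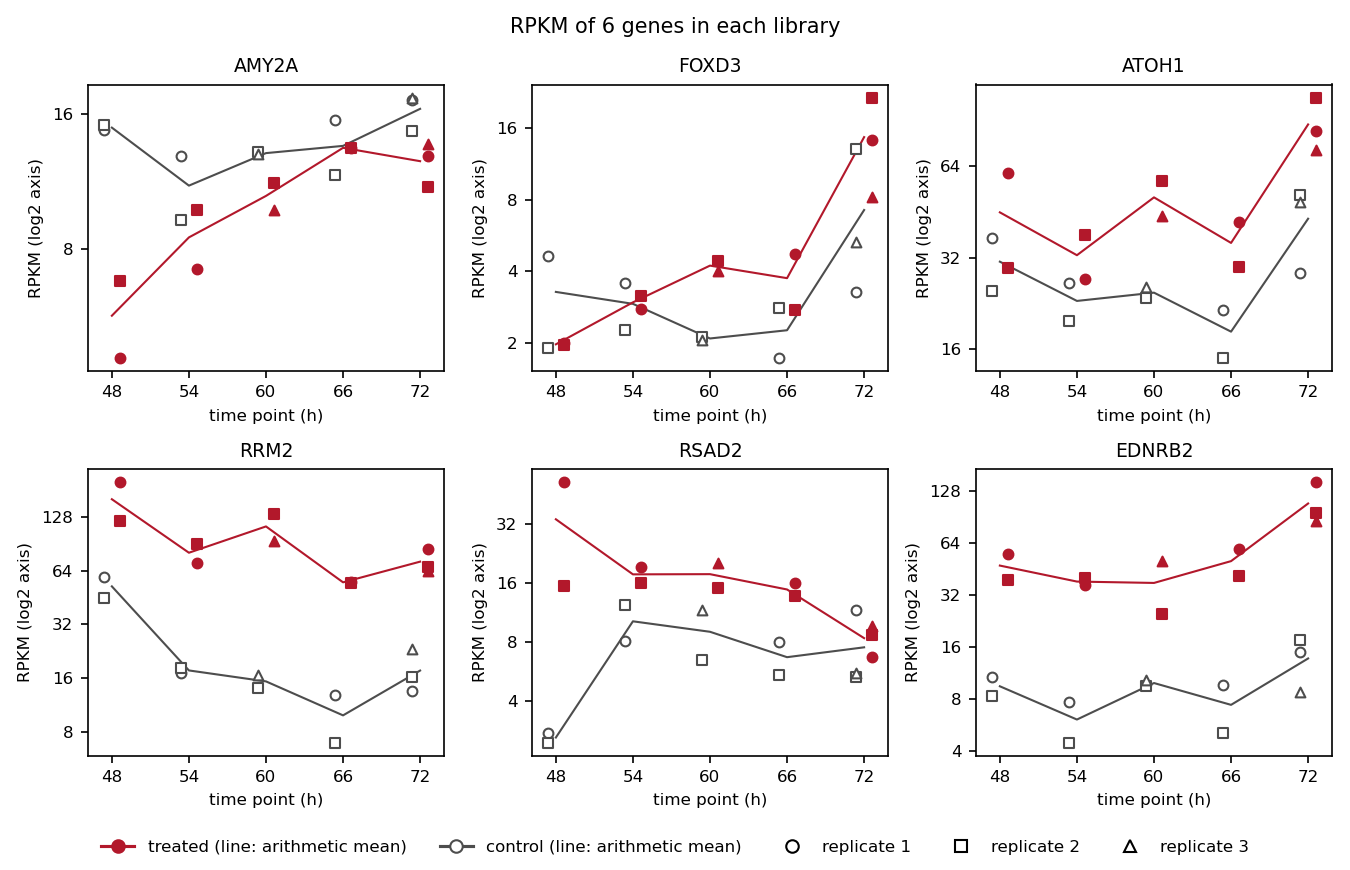
RPKM (y axis, log2 scale) of AMY2A, FOXD3, ATOH1, RRM2, RSAD2 and EDNRB2 in each library by time point in hours, treated in filled red and control in open grey, with lines joining the means. ATOH1, FOXD3 and EDNRB2 have all 3 treated samples of 72 h above all earlier treated samples, and RSAD2 has them below.

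Genes of the mature hair cell were described by another pair of lists. Of 46 hair bundle and mechanotransduction genes, 3 were higher (MYO15A, PDZD7 and ESPNL) and none lower, against 6.83% and 3.58% of all genes, with a median change of 0.18. Their mean level stayed between 2.82 and 3.17 in treated samples, below 3.96 to 4.43 in controls. Of 31 synapse, channel and calcium buffer genes, 3 were higher and none lower, with a median of -0.01. Without 1 library, the bundle count was 2 to 6 (6 without 54 h replicate 2 or 60 h replicate 2, 5 without 66 h replicate 2). The synapse count was then 1 to 4, with 1 gene without either replicate of 54 h, 60 h replicate 3, 66 h replicate 1 or 72 h replicate 1, and medians up to 0.18 and 0.19 without replicate 2 of 48 or of 72 h. With all 4 libraries that stood apart omitted, 1 bundle gene and 3 synapse genes were higher. Whether these lists differed from the transcription factors was not tested. ESPNL, an espin-like protein of stereocilia, read 11.1 and 10.9 RPKM at 48 h, 8.67 and 13.7 at 54 h, 25.8 and 14.9 at 60 h, 15.9 and 9.74 at 66 h, and 28.5, 32.8 and 26.1 at 72 h. Its 72 h samples exceeded all others, with a change of 1.21 ± 0.35. CHRNA10, a subunit of the receptor through which efferent fibres act on hair cells, stood at 6.10 and 7.32 RPKM at 48 h and at 14.4, 30.7 and 19.1 at 72 h, a change of 1.34 ± 0.32 (unadjusted p 0.00137, limma). The motor MYO7A had -0.02 (95% interval -0.82 to 0.78), the channel component TMC2 0.22 (-0.36 to 0.79) and otoferlin (OTOF) 0.49 (-0.01 to 0.98). These intervals leave room for changes of either sign. TMIE, another part of the transduction complex, stood between 0.126 and 0.549 RPKM up to 60 h and at 1.29 and 1.03 at 66 h, and at 72 h it was listed at 0, 0 and 0.321. That step was -1.49 ± 0.27, the smallest unadjusted p (0.000335, limma) among genes lower from 66 to 72 h.

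In the Notch pathway, 2 of 34 genes were higher along the window, NOTCH1 and HEYL, against 6.83% of all genes. The list had a median of 0.16. From 66 to 72 h 7 were higher and 1 lower, against 11.5% and 2.94% of all genes. The median of that step was 0.23. It was 0.19 without the 4 libraries that stood apart, where 72 h rests on 1 sample. The count along the window was 0 of 34 without 54 h replicate 1 or without 72 h replicate 2, 1 without 66 h replicate 1 or 72 h replicate 3, and 4 without 66 h replicate 2. The median was 0.06 without 48 h replicate 2, 0.07 without 72 h replicate 1 and 0.25 without 48 h replicate 1. The receptor gene NOTCH1 read 49.0 and 37.7 RPKM at 48 h, 25.0 and 33.7 at 54 h, 26.7 and 39.8 at 60 h, 39.8 and 31.9 at 66 h, and 62.5, 59.2 and 54.9 at 72 h. It was highest at 72 h in every sample and bent downward in between, by -0.72 ± 0.17, with a linear change of 0.48 ± 0.19. HEYL, a transcriptional repressor in the pathway, stood at 76.6 and 47.6 RPKM at 48 h, 42.1 and 57.2 at 54 h, 67.4 and 68.3 at 60 h, 69.8 and 39.5 at 66 h, and 85.8, 128 and 108 at 72 h, with a change of 0.71 ± 0.30. HES6, a relative of the Notch effectors that is found in early hair cells, stood at 48.5 and 26.04 RPKM at 48 h, 14.1 and 16.5 at 54 h, 31.2 and 34.4 at 60 h, 34.4 and 21.6 at 66 h, and 41.0, 31.5 and 37.5 at 72 h. Its 54 h samples were the lowest of the window, with a step of -1.20 ± 0.30 into 54 h and 1.08 ± 0.30 out of it. The ligand gene DLL1 had steps of the same signs, -0.60 ± 0.31 and 0.69 ± 0.31. The effector HES5 spread too widely to be placed, at 219.5, 12.6 and 29.3 RPKM in the 3 samples of 72 h. The ligand gene JAG1 had -0.08 (95% interval -0.46 to 0.30).

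Among 35 supporting cell and otolithic membrane genes, 4 were higher along the window, 1 was lower, and the median was 0.21. Without 48 h replicate 2 the higher count was 1, and it was 2 without 54 h replicate 2, 66 h replicate 1 or 72 h replicate 2, and 8 without 66 h replicate 2. It was 1 without the 4 libraries that stood apart, while the median lay between 0.17 and 0.28 when single libraries were left out. TECTA, a protein of the extracellular membranes over the epithelium, read 87.9 and 197 RPKM at 48 h, 183 and 212 at 54 h, 135 and 193 at 60 h, 214 and 166 at 66 h, and 265, 242 and 269 at 72 h. The 72 h samples exceeded the rest, the change was 0.77 ± 0.29, and it was 0.24 without replicate 1 of 48 h. SLC1A3, a glutamate transporter of supporting cells, was the lower one, with 346 and 338 RPKM at 48 h and 301, 226 and 256 at 72 h (-0.41 ± 0.14). SOX2, a transcription factor of supporting cells, had 0.21 (95% interval -0.23 to 0.64). GJB6, a gap junction gene of supporting cells, stood at 984 and 552 RPKM at 48 h and at 819, 281 and 527 at 72 h, so 1 time alone spread over most of the range of the window.

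EDNRB2, an endothelin receptor gene known from bird melanoblasts, read 55.5 and 39.3 RPKM at 48 h, 36.4 and 40.2 at 54 h, 24.8 and 50.4 at 60 h, 59.4 and 41.2 at 66 h, and 144, 95.7 and 85.9 at 72 h. All 72 h samples exceeded all earlier ones, and the controls stood at 4.45 to 17.5. The change was 1.10 ± 0.28 (unadjusted p 0.00216, adjusted p 0.35 with limma) and the bend -0.96 ± 0.24, and without the 4 libraries the change was 0.99. Of the 9 melanocyte genes, 5 had a positive fitted change and 4 a negative one. At an unadjusted p under 0.05, 3 were higher along the window and 0 lower. The list median was 0.04, and lay between -0.09 and 0.22 without single libraries (72 h replicate 1 and 48 h replicate 1). TYRP1, a melanin synthesis enzyme, had 0.86 ± 0.23 in treated and 0.31 ± 0.19 in control.

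FOXD3, a transcription factor of the neural crest and its glia, had the largest fitted change of the genes named for the linear term apart from BTC. It stood at 1.99 and 1.96 RPKM at 48 h, 2.79 and 3.14 at 54 h, 4.43 and 4.02 at 60 h, 4.73 and 2.75 at 66 h, and 14.2, 21.5 and 8.23 at 72 h. Both 48 h samples were the lowest and the 3 samples of 72 h the highest. The change was 2.18 ± 0.40 (unadjusted p 0.000156, adjusted p 0.31 with limma) and the last step 1.78 ± 0.36. Without the 4 libraries the change was 1.39, and in control it was 0.66 ± 0.46. In the list of 10 Schwann cell and glia genes, 4 were higher with a median of 0.15, and of 0.03 without 48 h replicate 2 and 0.31 without 48 h replicate 1. NGFR, the low-affinity neurotrophin receptor, read between 4.17 and 9.08 RPKM up to 66 h and 20.7, 21.8 and 12.1 at 72 h, a change of 1.34 ± 0.31. CDH19, a cadherin of Schwann cell precursors, had 1.02 ± 0.30.

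Stroma genes stood highest in 2 of the libraries that stood apart. Of 34, 16 were higher along the window and none lower, with a median of 0.58. The mean level was 3.34 and 3.38 at 48 h, 3.52 and 3.68 at 54 h, 3.43 and 3.57 at 60 h, and 3.82 and 3.36 at 66 h. At 72 h it was 4.42 and 4.53 in replicates 1 and 2 and 3.62 in replicate 3, so 2 samples stood far above and the other lay among the 66 h samples. Without the 4 libraries the median change was 0.12, with 1 gene higher, and the count was 5 and 9 without replicates 1 and 2 of 48 h and 8 without replicate 1 or 2 of 72 h. COL1A1, a chain of type I collagen, read 518 and 810.4 RPKM in those 2 libraries and 109 in replicate 3, against 52.5 to 181 at earlier times, with a change of 1.47 ± 0.72 and of 0.22 without the 4 libraries. COL6A1, a type VI collagen chain, had 1.32 ± 0.32, and 0.62 without them. The control library that stood apart at 72 h, replicate 2, had a stroma mean of 4.45. With the stroma mean as a covariate, 203 genes were higher and 92 lower over all 13862 at an unadjusted p under 0.05. Without it these counts were 947 and 496. The hair cell factor list had a median of 0.09 with the covariate, with 0 of 20 genes at that level. The replication and mitosis lists then had medians of -0.54 and -0.58 with 7 and 6 genes lower, against 18 and 24 without it. With so few genes counted in this fit, a count of 0 does not tell whether a list changed. The part of stroma in the other 72 h results was not tested beyond these values.

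Of 14 cartilage and bone genes, 6 were higher, with a median of 0.41, and of 0.12 without the 4 libraries, and 2 or 3 were higher without either replicate of 48 h or replicate 1 or 2 of 72 h. Endothelial genes had 3 of 13 higher and a median of 0.12, with 1 higher without 48 h replicate 1 or 72 h replicate 2. CLDN5, the tight junction claudin of vessels, stood at 7.54 and 10.6 RPKM at 48 h and at 19.3, 36.3 and 24.4 at 72 h, with a change of 1.23 ± 0.31 in treated and 0.82 ± 0.39 in control. Ion-transporting epithelium genes had 3 of 14 higher and a median of 0.35, with 1 higher and a median of 0.21 without 48 h replicate 1, and a median of 0.19 without 72 h replicate 3. CA2, a carbonic anhydrase, read 0.892 and 0.780 RPKM at 48 h, 1.01 and 0.967 at 54 h, 1.54 and 0.956 at 60 h, 1.25 and 1.25 at 66 h, and 2.67, 2.46 and 1.75 at 72 h, a change of 0.95 ± 0.21, and of 0.70 without the 4 libraries. Its 72 h samples lay above all earlier ones. Of 24 leukocyte genes, 2 were higher along the window and none lower, against 6.83% and 3.58% of all genes, with a median of 0.13. From 66 to 72 h, 8 of them were higher, against 11.5% of all genes, with a median step of 0.34. PTPRC, the pan-leukocyte marker CD45, stayed between 0.325 and 0.619 RPKM in every treated sample. The embryonic globin gene HBE1 was at most 0.303 RPKM.

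**Figure D5:**
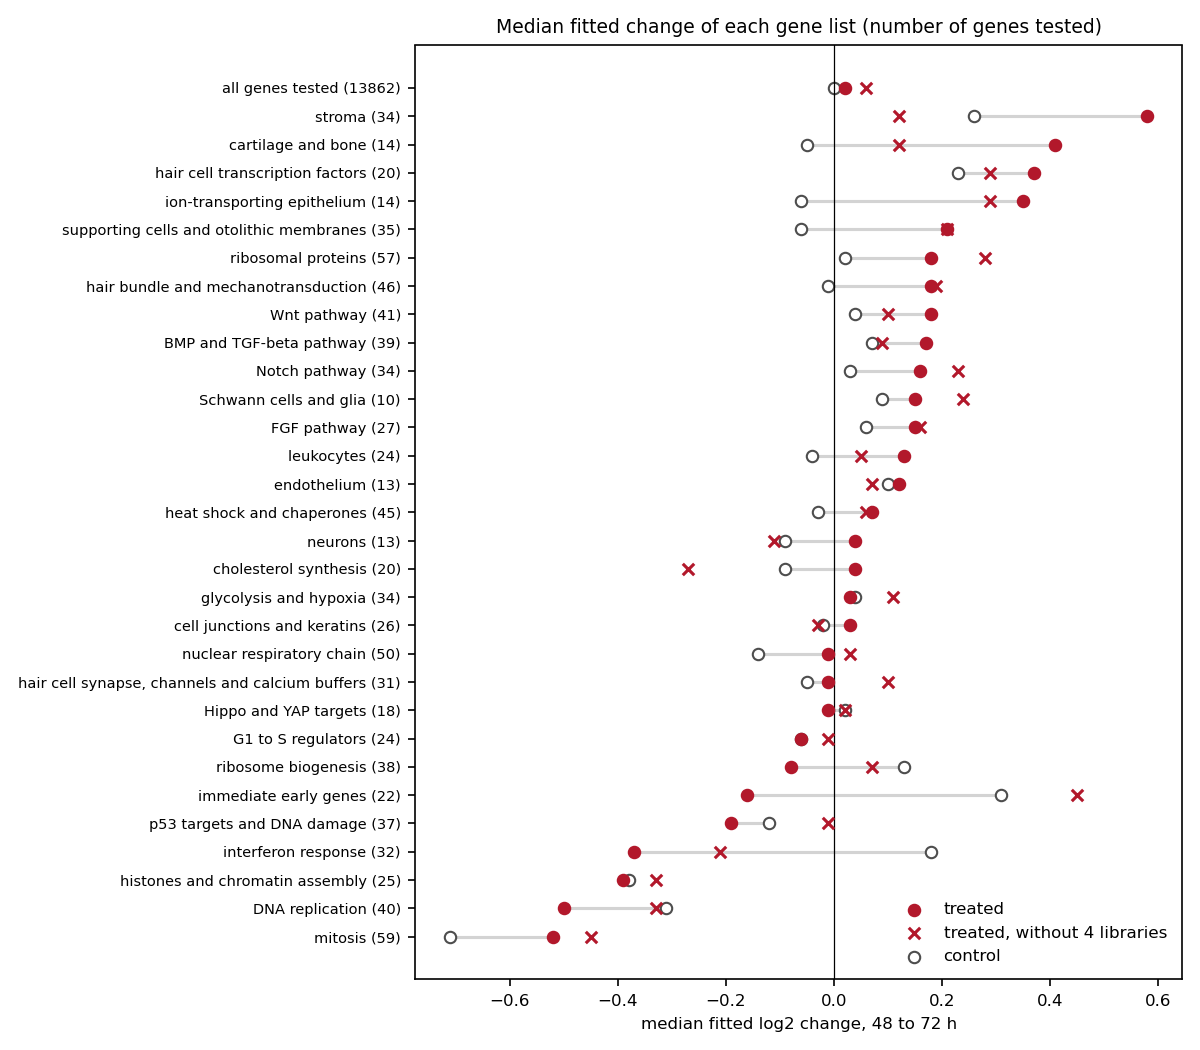
Median fitted change from 48 to 72 h (x axis, log2 scale) of each gene list with 10 or more genes, in treated, in control and in treated without the 4 libraries that stood apart. Mitosis and DNA replication lie at -0.52 and -0.50 in treated, and the stroma median goes from 0.58 to 0.12 without the 4 libraries.

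By unadjusted p, the gene first in order for the linear term was AMY2A, named for a pancreatic amylase, a starch-digesting enzyme. It stood at 4.57 and 6.78 RPKM at 48 h, 7.22 and 9.76 at 54 h, 11.2 and 9.76 at 60 h, 13.4 and 13.4 at 66 h, and 12.9, 11.0 and 13.7 at 72 h. The 48 h samples were the lowest and the values levelled off from 66 h, with a change of 1.13 ± 0.18 (95% interval 0.73 to 1.53, unadjusted p 5.5e-05, adjusted p 0.31 with limma). It was 1.08 without the 4 libraries. In control AMY2A lay between 9.29 and 17.4 RPKM with a change of 0.21 ± 0.17, and the difference of 0.92 ± 0.24 had an unadjusted p of 0.00121. SLC10A4, a transporter-like protein of synaptic vesicles, read 1.49 and 1.91 RPKM at 48 h, 1.57 and 2.46 at 54 h, 3.35 and 2.29 at 60 h, 3.06 and 3.45 at 66 h, and 4.11, 9.13 and 6.88 at 72 h. Its time means were in order, with a change of 1.58 ± 0.28, and of 1.48 without the 4 libraries.

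BTC, betacellulin, a ligand of the EGF receptor, was listed at 0 in both samples of 48 h and read 0.888 and 0.740 RPKM at 54 h, 1.14 and 0.610 at 60 h, 1.005 and 0.649 at 66 h, and 1.29, 4.88 and 2.84 at 72 h, a change of 2.21 ± 0.45 on the log2(RPKM + 0.5) scale. MMP11, a stromal metalloproteinase, had 1.01 ± 0.20, VSTM2L 0.97 ± 0.19, FAM110D 1.36 ± 0.26 and AGBL2, a tubulin carboxypeptidase, 0.99 ± 0.21. In MMP11, FAM110D and AGBL2 the 3 samples of 72 h lay above all earlier ones. Another pair of rows among the first 10, gga-mir-1571 and SNORA58, were listed at 0 in every sample up to 60 h and stayed under 1 RPKM at 72 h. SUB1, a transcription coactivator, read 49.5 and 38.5 RPKM at 48 h and 25.8, 25.8 and 29.6 at 72 h, a change of -0.62 ± 0.14. INPP5K, an inositol phosphatase, had -0.61 ± 0.15, with 33.3 and 30.3 RPKM at 48 h and 20.5, 16.1 and 21.97 at 72 h. For both, the 72 h samples lay below all earlier ones.

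Among the upward bends, EGFL6, a secreted matrix protein with EGF-like repeats, read 23.2 and 49.4 RPKM at 48 h, 47.1 and 48.0 at 54 h, 61.2 and 57.9 at 60 h, 57.1 and 49.3 at 66 h, and 34.9, 23.0 and 32.7 at 72 h, a bend of 0.90 ± 0.21. The 60 h samples were the highest, while 1 sample of 48 h lay above both of 54 h. LOC418892, described in the table as a complement C4-like gene, had a bend of 1.05 ± 0.25, the uncharacterized LOC415345 one of 0.73 ± 0.16, and LGI1, a secreted synaptic protein, one of 0.84 ± 0.19. Of the downward bends, HMGA2, a chromatin protein of proliferating progenitors, read 2.26 and 1.36 RPKM at 48 h. It read between 0.304 and 0.788 at 54, 60 and 66 h, and 1.38, 1.45 and 1.30 at 72 h. The middle times did not overlap with either end, and the bend was -1.16 ± 0.21 (unadjusted p 0.000141, adjusted p 0.581 with limma). TP53I11 stood at 30.7 and 32.5 RPKM at 48 h, 21.6 to 28.0 in the middle samples and 42.6, 65.2 and 46.5 at 72 h, with a bend of -0.85 ± 0.16.

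Of the single steps, C15orf48, which encodes a small mitochondrial protein, had the smallest unadjusted p among genes higher from 48 to 54 h, at 5.61 and 5.34 RPKM before and 20.2 and 16.5 after, a step of 1.65 ± 0.39. It then read 10.4 and 9.62 at 60 h, 11.5 and 21.8 at 66 h, and 5.09, 11.9 and 11.0 at 72 h, without a steady course. C1QC, a complement chain made by macrophages, stood at 4.27 and 3.42 RPKM at 60 h, 1.71 and 1.10 at 66 h, and 3.60, 5.17 and 3.52 at 72 h, steps of -1.20 ± 0.26 and 1.27 ± 0.24. Its 66 h samples were the lowest of the window. The smallest p-values for the remaining directions fell on the small nucleolar RNAs SNORD99, SNORD73 and snR47, whose values stayed under 5 RPKM and were listed at 0 in some samples, including 0 and 0 at 54 h for SNORD99 and 0 and 0 at 60 h for snR47. From 66 to 72 h, LTBP2, a protein of elastic fibres, had a step of 1.18 ± 0.24 and MMP9, a gelatinase, one of 1.69 ± 0.38, with 125 and 94.6 RPKM at 66 h and 256, 658 and 258 at 72 h.

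In the other signalling pathways few members stood out. The Wnt list had 5 of 41 genes higher along the window and none lower, against 6.83% and 3.58% of all genes, with a median of 0.18. From 66 to 72 h 10 were higher, against 11.5% of all genes. The median of that step was 0.26. It was 0.15 without the 4 libraries that stood apart, where 72 h rests on 1 sample. Along the window the median was 0.04 with 3 genes higher without 48 h replicate 2, and 2 genes were higher without 72 h replicate 2 and 3 without 54 h replicate 1, 66 h replicate 1 or 72 h replicate 1. With the stroma mean as a covariate the median was -0.02 with 0 of 41 genes higher. That fit counted 295 of all 13862 genes in either direction. NOTUM, a secreted enzyme that inactivates Wnt ligands, had a change of 0.62 ± 0.21 and FZD2, a Wnt receptor, 0.94 ± 0.37. The BMP and TGF-beta list had 3 of 39 higher, against 6.83% of all genes. Its median of 0.17 was 0.07 to 0.09 without either replicate of 48 h or replicate 2 of 72 h, and -0.02 with the stroma covariate. Its count was 6 without 60 h replicate 2 or 66 h replicate 2. NOG, the BMP antagonist noggin, read 0.772 and 1.47 RPKM at 48 h, 1.17 and 1.62 at 54 h, 3.12 and 2.27 at 60 h, 2.31 and 3.27 at 66 h, and 3.77, 1.96 and 2.13 at 72 h. Samples from 60 h on lay above those of 48 and 54 h, and the change was 1.05 ± 0.28. The FGF list had 2 of 27 higher, against 6.83% of all genes, and a median of 0.15. ETV4, a transcriptional target of FGF signalling, had 0.56 ± 0.24. The list median turned to -0.03 without 48 h replicate 2 and was 0.06 to 0.08 without either replicate of 54 h or replicate 2 of 72 h. The count was 0 of 27 without 48 h replicate 1, 54 h replicate 1, 72 h replicate 2 or 72 h replicate 3, 1 without 72 h replicate 1, and 4 without 54 h replicate 2.

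Members of the stress and metabolic lists went in both directions. Immediate early genes had 1 of 22 lower and a median of -0.16. Replicate 1 of 72 h stood apart here: its list mean was 4.13, against 5.30 to 6.23 in the other 10 treated samples, and without it the median was 0.45, with 4 genes higher and 0 of 22 lower. The median was also 0.45 without the 4 libraries, which include it, and 0.04 without 48 h replicate 1. KLF6, one of them, read 24.6 RPKM in replicate 1 of 72 h and 107 to 137 in the other 10 treated samples. EGR1, an early response factor, ranged from 212 to 1250.0 RPKM without order in time, with a change of -0.70 (95% interval -2.34 to 0.94). Among stress response genes, PHGDH, the entry enzyme of serine synthesis, had 1.94 ± 0.46 in treated and 1.50 ± 0.40 in control, and CHAC1, a glutathione-degrading enzyme induced by amino acid stress, had 1.50 ± 0.40. CHAC1 read 11.3 and 7.51 RPKM at 48 h, 6.33 and 12.7 at 54 h, 24.2 and 26.7 at 60 h, 39.5 and 20.8 at 66 h, and 16.7, 26.02 and 20.04 at 72 h, so all samples from 60 h on exceeded the earlier ones. The chaperone HSPA5 had 0.23 (95% interval -0.12 to 0.57). Ribosomal protein genes had 1 of 57 higher and a median of 0.18 (-0.11 without 48 h replicate 2 and 0.46 without replicate 1), and the 5 genes encoded by the mitochondrial genome had a median of 0.50, with 2 higher, and 0 of 5 without any 1 sample of 48 or 54 h or replicate 1 or 2 of 72 h. Nuclear genes of the respiratory chain had 12 of 50 higher from 66 to 72 h, against 11.5% of all genes.

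Time points at the ends of the window were also described by counting genes, a measure chosen after seeing the data. All 3 treated samples of 72 h lay above the other 8 treated samples in 630 genes (4.54%) and below them in 310 (2.24%). Both samples of 48 h lay above the other 9 in 332 genes (2.4%) and below in 256 (1.85%). In control the counts were 128 (0.923%) and 98 (0.707%) at 72 h and 520 (3.75%) and 210 (1.51%) at 48 h. Of the 20 hair cell transcription factors, 5 lay above at 72 h in treated, ATOH1, POU4F3, LHX3, NHLH1 and FOXJ1. FOXJ1, a factor of motile cilia named after its values were seen, read 1.81 to 3.38 RPKM up to 66 h and 5.96, 5.62 and 4.75 at 72 h. Of the 41 Wnt genes, 5 lay above at 72 h, WNT5A, WNT8B, TCF7, ZNRF3 and RNF43, of which ZNRF3 and RNF43 encode enzymes that remove Wnt receptors from the cell surface. Of the 59 mitosis genes, 17 lay above at 48 h in treated and 42 in control.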

How the data were processed

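The data are 1 deposited table of 17684 rows, in which each named gene has 1 value per library. As the authors deposited them, these values were taken to be RPKM, read counts normalized to transcript length and to the alignments of the library, although the table names no unit. That reading rests on the values: after multiplication by the alignments listed for each library, 55% of 3172 rows checked had over 90% of their values within 0.05 of a whole multiple of 1 step, against 12.9% without the multiplication. TopHat 1.4.0 and Partek 6.6 are named in the submitters' processing notes without their roles, and no source used here gives the genome build, the annotation or how shared reads were counted. RPKM is relative, so a higher share of some transcripts lowers others, and values of near-identical copies and of small nucleolar RNAs are uncertain. 2 columns that matched no sample were not used, which leaves replicates 2 and 3 at 60 h.

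The 13862 genes that reached 1 RPKM in 2 or more of the 60 libraries were tested as log2(RPKM + 0.5), which understates the change of low genes. The test was limma 3.58.1 in R 4.3.3 with statmod 1.5.0 (moderated variances that follow the mean level), with hours centred on 60 and no block, 8 residual and 3.45 prior degrees of freedom for the treated curve. Steps and the F test used time as a factor, and the arms were compared by interaction terms. Benjamini-Hochberg adjustment ran over all genes tested, with calls under 0.05. The scripts were tested on simulated data. Alternatives were other pseudocounts, filters and scalings, covariates, library weights, a block and leaving out each sample.

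Members, the 34 gene lists (1297 entries, 1021 in the table, 949 tested) and 40 single genes (38 tested) were chosen with earlier results of these data known. Named genes were those 40, the 3 members of each list with the smallest p for the linear term, and those with the smallest p per test and direction: 10 for the linear term, 5 for the bend, 5 for the difference between arms and 1 for each step. Not every one of these 165 genes is described. Genes named outside this rule are marked as such. Of 13604 row names that are symbols, 11718 matched assembly GRCg7b by symbol or synonym; 4080 rows with Ensembl identifiers (2322 tested) were tested but not named. Figures were drawn with matplotlib 3.10.9.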

Additional observations from a re-analysis of the deposited data

How the results depend on the processing

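No gene passed for the bend, for the control trend or for either difference between arms under any alternative run, including leaving out each sample. The count for the linear term was 1 with library weights and 0 to 1 when a sample was left out (1 without 60 h replicate 2). The F test gave 0 to 114 (114 without 60 h replicate 3), the step from 48 to 54 h 0 to 3 (3 without 48 h replicate 2), that from 54 to 60 h 0 to 578 and that from 60 to 66 h 0 to 873 (both without 60 h replicate 3). Without a filter on low values the step from 60 to 66 h gave 2 and that from 66 to 72 h gave 4, and library weights gave 1805 for the latter. For single genes, 4126 values kept their direction and side of the threshold, 4 newly passed and 35 changed sign. The 4 were snR47 (-2.57, 54 to 60 h) and C1QC (-1.34, 60 to 66 h) without 60 h replicate 3, and MYCL1 (0.82) and TMIE (-1.09) from 66 to 72 h with library weights. The cause of these differences was not tested.

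All sign changes concerned the linear term. With library weights JAG1 had 0.02, MYO7A 0.00, CCND1 0.03, EGR1 0.41 and TNNI2 0.17. Without the 4 libraries that stood apart JAG1 had 0.06, CCND1 0.08, GJB6 0.03, EGR1 0.68 and TNNI2 0.25. With the stroma mean as covariate SOX2 had -0.10, CDKN1B -0.04, COL1A1 -0.37, EGR1 0.10, KLF6 0.03 and TNNI2 0.13. COL1A1 is itself a stroma gene, so this covariate cannot show whether its change is stable. MYO7A had 0.06 with the number of alignments as covariate and 0.03 without the quadratic term, and CDC20 had 0.06 without it. When single samples were left out, HES5 ranged from -0.23 to 1.50, SOX2 from -0.04 to 0.35, MYO7A from -0.24 to 0.17, MCM6 from -0.38 to 0.01, CCND1 from -0.20 to 0.13, PLK1 from -0.44 to 0.14, CDC20 from -0.13 to 0.14, EGR1 from -1.0 to 0.01, KLF6 from -0.87 to 0.12 and ACTA1 from -0.03 to 0.61.

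Samples share replicate numbers, but the numbers were not shown to pair treated samples across times: the correlation of deviations from the time means was over 0.1 in 6 of 17 treated pairs of the same number at different times, and in 5 of 31 pairs of other numbers. Treated and control samples of the same number deviated together at most times: r was 0.448, 0.234, 0.075 and 0.263 at 48, 54, 60 and 66 h, where 2 samples per arm give 1 value, and 0.560, 0.710 and 0.403 at 72 h, where each treated sample correlated best with the control of its own number. Of these 7 separate values, 6 were over 0.1. The value at 60 h was under 0.1 and the labels name no shared source, so the fit without a block was kept. The differences between arms in that fit leave out the shared deviation seen at the other times, and are to be read beside the pair block. With the replicate block 0 genes passed in every test, and at an unadjusted p under 0.05 there were 1104 for the linear term, 807 for the bend, 1502 for the F test, 630, 1345, 1745 and 2660 for the steps in time order and 930 for the control trend. For the differences between arms that block gave 287 and 668, and a block of treated and control pairs gave 768 for the linear term, against 253 without it, and 1440 for the bend, against 633. In that linear fit 589 of all 13862 genes were higher in treated and 179 lower, against 172 and 81 without the pair block. The list counts of that fit are to be read against this wider rise. In it 15 rather than 7 of the 32 interferon genes were lower. Higher were 2 rather than 0 of the 20 hair cell factors and 3 rather than 0 of the 59 mitosis genes. The ATOH1 difference was 0.65 ± 0.29 (unadjusted p 0.0429, limma). The 11 samples, 2 or 3 per time, limit precision, with a median standard error of 0.24 for the linear change.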

Other observations

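These genes were chosen after their values were seen. Some genes had time means in strict order over all 4 steps of the treated window: 120 higher at each step (0.866% of 13862) and 77 lower (0.555%), against 94 (0.678%) and 212 (1.53%) in control. The 120 include a run of rows with Ensembl identifiers that share a fitted change of 0.31 and were counted separately. PENK, which encodes the precursor of the opioid peptide enkephalin, was also among the 120. Its samples read 7.64 and 3.96 RPKM at 48 h, 6.49 and 6.62 at 54 h, 8.61 and 7.83 at 60 h, 9.78 and 7.65 at 66 h, and 14.6, 14.5 and 8.94 at 72 h, a fitted change of 1.04 ± 0.25, while the controls lay between 2.34 and 4.15. The ordered genes also included ASCL2, a bHLH transcription factor, at 1.07 ± 0.26, and ACTA2, smooth muscle actin, at 1.53 ± 0.46, and ACTA2 had 0.33 without the 4 libraries that stood apart. The 1 row called for the linear term with library weights, F1NKJ9_CHICK, was also the 1 called for it without 60 h replicate 2. It is described in the table as an iodothyronine deiodinase, an enzyme class that activates or inactivates thyroid hormone. It stood at 6.45 and 7.78 RPKM at 48 h, 9.67 and 7.34 at 54 h, 22.1 and 9.76 at 60 h, 16.6 and 13.5 at 66 h, and 23.2, 24.7 and 21.1 at 72 h, a change of 1.63 ± 0.27 in treated and 0.51 ± 0.47 in control.

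Among 20 cholesterol synthesis genes, 6 were higher from 48 to 54 h at an unadjusted p under 0.05, against 1.03% of all genes. CYP51A1, a sterol demethylase, stood at 18.6 and 35.1 RPKM before and 54.5 and 47.3 after. From 66 to 72 h 6 of the 20 were higher, against 11.5% of all genes. The median step of the list was 0.49, -0.17, -0.35 and 0.15 in time order. Without the 4 libraries that stood apart, 48, 60 and 72 h rest on single samples, and the median steps were 0.21, -0.32, -0.15 and 0.39.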
